A study of Mus musculus with 2 samples.

Results

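The small leucine-rich proteoglycans are secreted matrix proteins, and the genes described here are Dcn (decorin), Bgn (biglycan), Aspn (asporin), Lum (lumican), Fmod (fibromodulin), Prelp (prolargin), Omd (osteomodulin) and Ogn (osteoglycin, also called mimecan). They were chosen by symbol, and all 8 were present among the 31055 features counted in each library. The data were single-cell RNA-seq counts of unique molecular identifiers (UMIs) from cells of the mouse pituitary at postnatal day 3, sorted for green fluorescence. Both groups were Sox9iresGFP/+, with a GFP reporter at a Sox9 allele, and no treatment was given. One group was male and the other female, each a single library made from the pooled pituitaries of 3 animals, so sex and library could not be told apart. No test was possible between libraries or cell classes. All intervals below are exact 95% intervals that cover counting error only.

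These proteins share a core of leucine-rich repeats that binds collagen fibrils and sets their spacing and width. Decorin, biglycan and asporin form class I, lumican, fibromodulin, prolargin and osteomodulin class II, and osteoglycin class III. Decorin and biglycan carry chondroitin or dermatan sulphate chains and bind TGF-beta, whereas asporin carries a run of aspartates in place of a chain. In most organs fibroblasts make them, in the capsule and around vessels, while most epithelial cells make little.

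The sort was for SOX9, which marks pituitary stem cells (SCs), and the cells are labelled as SCs, but mesenchymal, endocrine and other cells were present too. After filtering, 10410 male and 5711 female cells were kept, with a median of 8902.5 and 9789 UMIs, and 25.4% of male cells against 1.68% of female cells held under 2000 UMIs. The libraries shared 18 barcodes among the cells kept. Classes were set from raw UMIs of genes other than the 8. Mesenchymal cells had at least 10 UMIs of Col1a1, Col1a2 and Col3a1 summed and at most 1 UMI of Epcam, Pitx1 and Cdh1 summed. Among them, 363 male and 175 female cells were Tcf21-type (Tcf21 present, Mfap5 at most 1 UMI), 25 and 13 were Mfap5-type (Mfap5 at least 2, no Tcf21), 102 and 98 had both markers, and 26 and 7 were mural-type (at least 3 UMIs of Rgs5, Abcc9 and Kcnj8 summed). SCs (Sox2 at least 2 UMIs, no Lef1, no endocrine marker) numbered 3384 and 3454. Endocrine cells (gonadotroph-type, Pou1f1-type or Pomc-type) numbered 1139 and 270, and cells with at least 2 UMIs of Lef1 and no endocrine marker, called Lef1-type, 887 and 602. Cells with both collagen and epithelial UMIs (142 and 33) were set apart as mixed.

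Genes used in no gate served to check these names. In Tcf21-type cells, 14 mesenchymal markers such as Pdgfra and Postn summed to 3869 CPM in male and 4024 CPM in female cells. CPM are UMI counts scaled to the same total in each class. In SCs the sum was 335 and 368 CPM. Of the 14, 11 were at least 2-fold higher in Tcf21-type cells than in SCs in both libraries, and none was lower. Prrx1 did not separate the classes, at 157 and 191 CPM in SCs against 108 and 81.8 CPM in all mesenchymal cells. Col6a3 was close, at 91.9 and 94.9 CPM against 118 and 138 CPM. The 7 secretory granule genes stood at 27.4 and 19.5 CPM in Tcf21-type cells against 5445 and 4545 in endocrine cells, and the 7 SC markers at 204 and 204 against 1507 and 1804 in SCs. Mfap5 and Tcf21 were often found in the same cells: 102 of 127 male (80.3%) and 98 of 111 female (88.3%) mesenchymal cells with at least 2 Mfap5 UMIs also carried Tcf21, somewhat below the 89.3% and 91.9% of all mesenchymal cells that were not mural-type. The reporter transcript eGFP itself was at 7.02 and 6.24 CPM in Tcf21-type cells and at 23.2 and 16.0 CPM in SCs. Cartilage was not represented: Col2a1, Acan and Matn1 were at 0 in the Tcf21-type cells of both libraries, and the whole list of 7 cartilage genes was at 0 in Mfap5-type cells, with summed levels of 9.69 and 14.8 CPM in Tcf21-type cells. The Mfap5-type list held 7 genes (Apod, Pi16, Dpp4, Cd34, Ly6a, Clec3b and Sema3c). It stood at 1366 and 1804 CPM in Mfap5-type cells, and at 586 and 804 CPM in Tcf21-type cells. Ly6a was at 0 in the Mfap5-type cells of both libraries, and Pi16 in the female ones. Of 5 bone genes, only Spp1 was present in Mfap5-type cells, and Bglap, Sp7, Ibsp and Dmp1 were at 0. The Schwann cell list stayed between 2.34 and 2.67 CPM and the red cell list between 1.0 and 1.56 CPM in Tcf21-type cells. A list of 7 meningeal genes was present, at 331 and 387 CPM in Tcf21-type and 865 and 726 CPM in Mfap5-type cells. It was 1042 and 815 CPM in SCs, and its gene Aldh1a2 also served to split SCs. Of 6 of these genes compared, 3 were at least 2-fold higher in Tcf21-type cells than in SCs and 3 were lower.

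Most of the genes lie in clusters (coordinates in mm10, from the annotation). Dcn (chromosome 10, 97479609 to 97518143) is followed by Lum (97565128 to 97572703), and then by the keratocan gene Kera and the epiphycan gene Epyc. Aspn (chromosome 13, 49544443 to 49567565), Omd (49582462 to 49592822) and Ogn (49608046 to 49624501) are consecutive coding genes on the plus strand, with Ecm2 before them. Prelp (chromosome 1, 133910304 to 133921414, minus strand) is the neighbour of Fmod (134037254 to 134048277, plus strand), and the opticin gene Optc lies 2304 bases from Prelp. Bgn is on the X chromosome (73483602 to 73495933).

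RefSeq promoter windows were matched for 6 of the 8 genes, the others being Dcn and Lum. They are shown for Prelp and its neighbour, and for Aspn and Ogn. Each is the 250 bases before the RefSeq start in GRCm38.p6, read in the direction of the gene, with capitals at any match to AACAAT (the core bound by SOX factors), CAGCTG (an E-box) or TATAAA on either strand. Prelp (chr1:133921402-133921651, minus strand) was found in SCs as well as mesenchyme, and its neighbour Fmod (chr1:134037004-134037253, plus strand) is set beside it. Aspn (chr13:49544193-49544442, plus strand) was highest in mural-type cells, and Ogn (chr13:49607765-49608014, plus strand), of the same cluster, in other mesenchymal cells.
Prelp: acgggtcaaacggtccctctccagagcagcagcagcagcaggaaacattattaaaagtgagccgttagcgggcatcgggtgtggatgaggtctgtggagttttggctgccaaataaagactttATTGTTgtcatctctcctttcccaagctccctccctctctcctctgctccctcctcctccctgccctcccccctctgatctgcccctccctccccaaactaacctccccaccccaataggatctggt
Fmod: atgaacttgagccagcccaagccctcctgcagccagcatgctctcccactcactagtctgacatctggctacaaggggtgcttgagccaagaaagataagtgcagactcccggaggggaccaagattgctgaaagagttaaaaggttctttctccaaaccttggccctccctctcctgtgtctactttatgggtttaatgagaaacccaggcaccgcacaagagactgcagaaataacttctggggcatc
Aspn: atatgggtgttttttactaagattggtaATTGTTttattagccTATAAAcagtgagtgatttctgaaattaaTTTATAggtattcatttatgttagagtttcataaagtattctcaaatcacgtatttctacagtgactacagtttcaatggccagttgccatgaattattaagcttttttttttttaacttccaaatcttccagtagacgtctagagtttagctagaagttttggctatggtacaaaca
Ogn: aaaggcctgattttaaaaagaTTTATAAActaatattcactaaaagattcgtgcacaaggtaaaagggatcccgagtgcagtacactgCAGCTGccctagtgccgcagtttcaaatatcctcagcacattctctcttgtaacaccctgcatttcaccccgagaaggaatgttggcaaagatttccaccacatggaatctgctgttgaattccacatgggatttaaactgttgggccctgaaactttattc
The match in Prelp was to the SOX core on the strand opposite to the gene, 127 to 122 bases before its start. Aspn held a SOX core 222 to 217 bases before the start and a pair of TATAAA matches. Bgn held an E-box 102 to 97 bases before the start. Ogn held an E-box 162 to 157 bases before the start, and its TATAAA matches on the 2 strands overlapped. None of these letters was found in the windows of Fmod or Omd. Of 32851 RefSeq promoter windows of this length, 9.42% held the SOX core, 13% the E-box and 12.4% TATAAA, so a single match is common. The first transcribed bases of the RefSeq starts of Ogn and Bgn were not in a transcript of the GENCODE annotation, and those windows may not be at the start used in these cells.

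Dcn, Bgn, Lum, Omd and Ogn were mesenchymal genes in both libraries, Prelp was found in SCs as well as in mesenchymal cells, Aspn was higher in mural-type than in other mesenchymal cells, and Fmod was scarce throughout. Comparisons needed at least 100 UMIs summed over the classes compared and both libraries. Between Tcf21-type cells and SCs 6 of the 8 could be compared, and Aspn and Fmod fell below the minimum. A gene scarce in SCs or endocrine cells could pass this minimum only through its mesenchymal UMIs. Its direction was then fixed in advance. Against SCs this was so for Lum (9 male and 1 female UMIs in SCs) and Omd (6 and 10). Dcn, Bgn, Lum, Omd and Ogn were at least 2-fold higher in Tcf21-type cells in both libraries, as were 9.69% of the 13142 genes compared. No member was at least 2-fold lower, and 14.1% of genes were. The median log2 ratio was 6.75 for the 6 genes and -0.08 for all genes. Because Lum and Omd are among the 6, this count and median are descriptions only. Against endocrine cells, Dcn, Bgn, Lum, Prelp and Ogn could be compared and all were at least 2-fold higher in Tcf21-type cells. So were 11.8% of 11148 genes, while 16.2% were lower and no member was. Bgn (44 and 13 endocrine UMIs), Lum (7 and 1), Prelp (16 and 3) and Ogn (54 and 3) passed the minimum only with their Tcf21-type UMIs. Only the direction of Dcn was therefore open in that comparison.

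**Figure D1:**
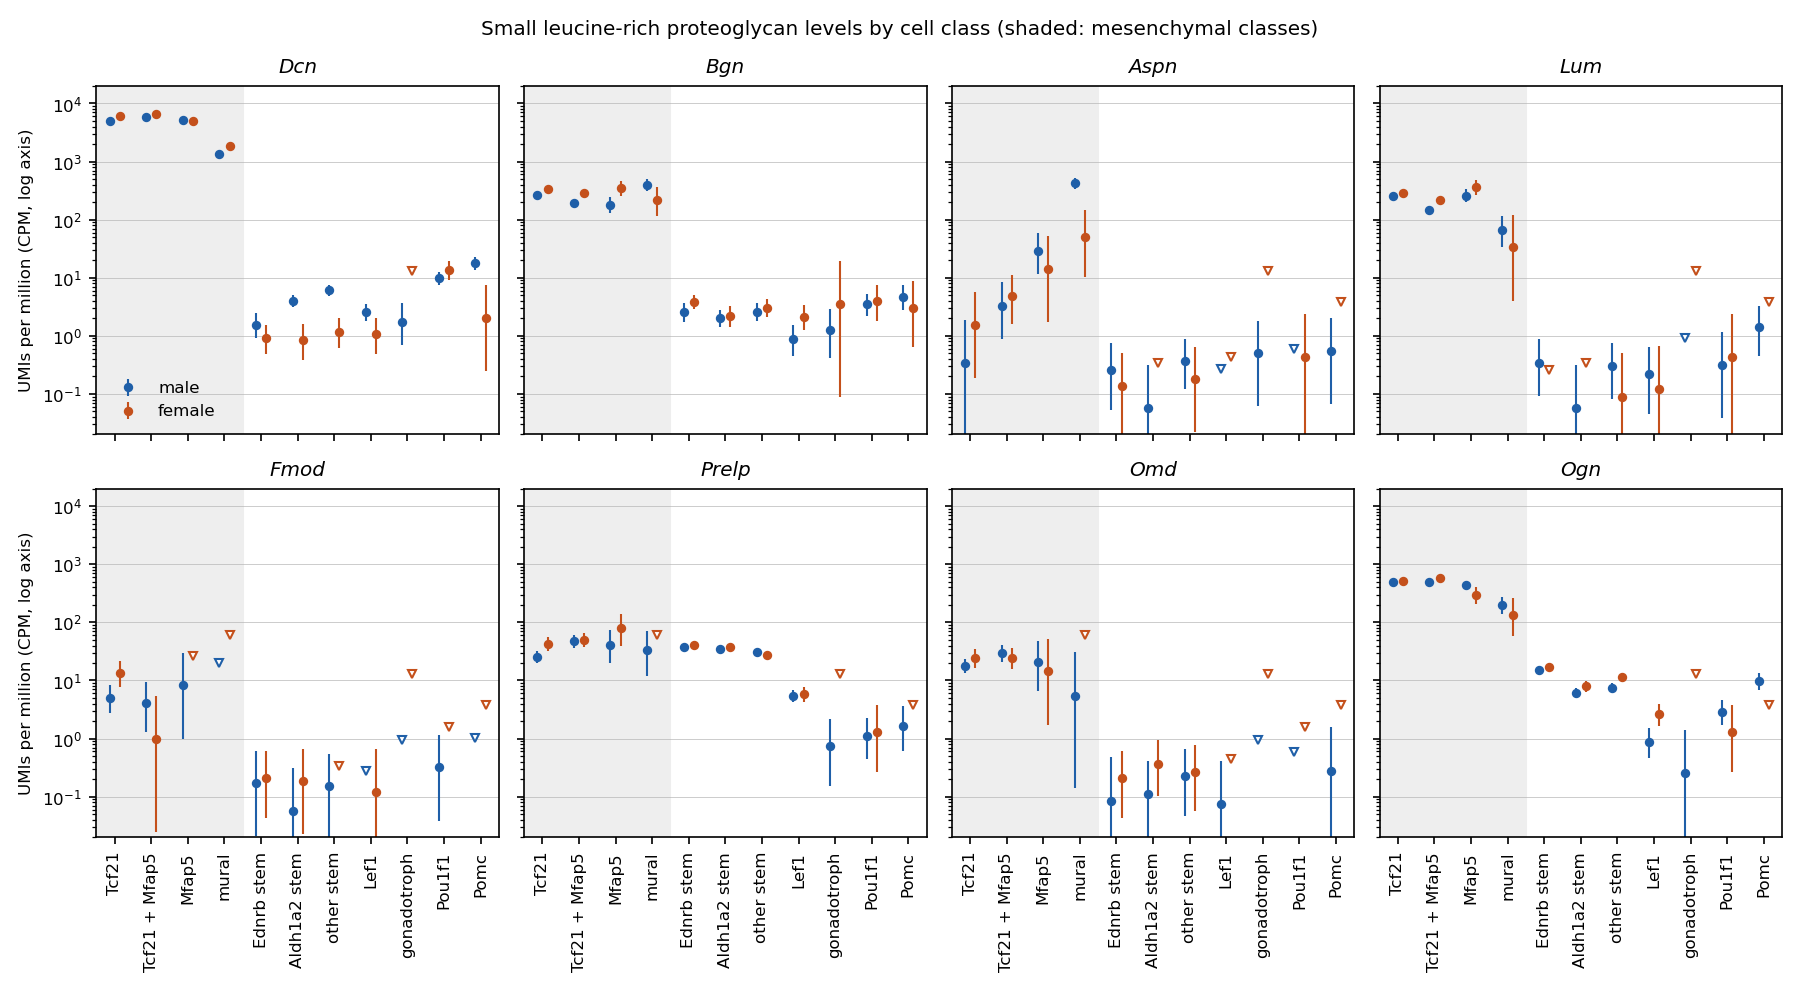
Level of each gene in 11 cell classes, as CPM on a log axis, with filled points for the male and female library and exact Poisson 95% intervals; open triangles mark the upper limit where no UMI was counted, intervals that reach below the axis are cut there, and shading marks the mesenchymal classes. Dcn, Bgn, Lum, Omd and Ogn stand highest in the shaded classes, Prelp is present in stem cells as well as in mesenchymal cells, and Aspn stands highest in mural-type cells.

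Decorin, which binds collagen and holds TGF-beta in the matrix, gave most of the signal. Its level in Tcf21-type cells was 4971 CPM (4892–5052) for male and 6169 CPM (6034–6307) for female cells, and every one of the 363 and 175 cells had a Dcn UMI. Against SCs, the male log2 ratio was 10.28 and the female one 12.65, and with the mean of per-cell CPM they were 8.43 and 12.57. Dcn made up 82.3% and 83.5% of all UMIs of the 8 genes in those cells. In cells thinned to 5000 UMIs each, the median was 23 Dcn UMIs in male and 30 in female Tcf21-type cells, and the cells ran from 12 to 41 and from 16.2 to 46.8 once those at either extreme (the tenth with least and the tenth with most) were set aside. Dcn was thus present throughout the class and varied a few-fold from cell to cell. In mural-type cells it was lower, at 1346 and 1819 CPM, with a UMI in 13 of 26 and 5 of 7 cells. Of 5 members compared, Dcn, Lum and Ogn were at least 2-fold higher in Tcf21-type than in mural-type cells in both libraries, as were 2.66% of 5836 genes, and none was lower, as 3.19% were.

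Biglycan, the closest relative of decorin, stood at 271 CPM in male and 332 CPM in female Tcf21-type cells. The SC levels were 2.36 and 3.11 CPM, which gave ratios of 115 and 107. Unlike Dcn and Lum, Bgn was not lower in mural-type cells of both libraries: the male level was 399.5 CPM and the female level 217 CPM, so the libraries differed in direction. Both Bgn and Dcn code for chain-bearing proteins of class I, but Bgn held a larger part of its UMIs outside the mesenchymal class. The mesenchymal share was 70.2% and 74.9% for Bgn and 80.9% and 90.9% for Dcn.

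Asporin, the class I member without a chain, was nearly absent from Tcf21-type cells. In Tcf21-type cells there was 1 Aspn UMI among 363 male cells and there were 2 among 175 female cells (0.334 and 1.56 CPM). In mural-type cells it was 421 CPM in the male library, from 77 UMIs in 16 of 26 cells, and 50.1 CPM in the female library, from 3 UMIs in 2 of 7 cells. The ratio of mural-type to Tcf21-type was 1261 (179–62236) for male and 32.1 (1.83–775) for female cells. Aspn was thus higher in mural-type than in Tcf21-type cells in both libraries, though the female value rests on 3 UMIs. The mural-type cells carried the list of 6 pericyte and smooth muscle genes at 1910 and 1619 CPM, against 421 and 317 CPM in Tcf21-type cells, with Myh11 and Tagln at 0 in the 7 female cells. Mfap5-type cells gave 7 Aspn UMIs in 3 male cells and 2 UMIs in the female library. Of all Aspn UMIs, 60.1% of 148 and 52.2% of 23 were in mesenchymal cells, and 21.6% and 26.1% were in cells that met no gate.

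Lumican, a keratan sulphate proteoglycan of class II, was nearly absent outside mesenchyme. It stood at 256 CPM and 289 CPM in Tcf21-type cells and at 0.211 CPM and 0.0275 CPM in SCs, the last from 1 UMI in 3454 cells. The ratio was 1214 in the male library and 10488 (1695–458679) in the female one, and against endocrine cells it was 506 and 1031. With 20 collagen UMIs as the mesenchymal limit, the log2 ratio of Lum to SCs was 9.14 in male cells in place of 10.25. Omd, named for its expression in bone, followed the same order, with 17.7 and 24.2 CPM in Tcf21-type cells against 0.140 and 0.275 CPM in SCs. Fmod, which directs collagen fibril assembly in tendon, gave only 42 male and 28 female UMIs in all, of which 54.8% and 67.9% were in mesenchymal cells. Its level in Tcf21-type cells was 5.01 and 13.3 CPM.

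Osteoglycin, of class III, was at 496 CPM in male and 520.2 CPM in female Tcf21-type cells, at 8.99 and 12.5 CPM in SCs and at 3.90 and 0.839 CPM in endocrine cells. The ratio of Tcf21-type to SCs was 55.2 and 41.6, smaller than for the other 4 mesenchymal members in both libraries. In cells thinned to 5000 UMIs, 78.1% and 71.2% of Tcf21-type cells had an Ogn UMI, against 3.88% and 5.16% of SCs and 0.719% and 0.766% of endocrine cells.

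For the members with enough UMIs, no 2-fold difference from Tcf21-type cells common to both libraries was found in both-marker or Mfap5-type cells. Mural-type cells did differ for Dcn, Lum and Ogn, as given above. Summed over the 8, the level was 6043 and 7392 CPM in Tcf21-type, 6866 and 7743 CPM in both-marker and 6148 and 6175 CPM in Mfap5-type cells, most of it Dcn. None of the 5 genes compared was 2-fold higher or lower in Mfap5-type than in Tcf21-type cells in both libraries, where 1.52% of 5931 genes were higher and 3.59% lower. The median log2 ratio was -0.11 for these genes and -0.12 for all genes. The Mfap5-type class was small, so the limits were wide. Aspn, Fmod and Omd had too few UMIs for this comparison. The ratio of Mfap5-type to Tcf21-type was 85.9 (6.20–6990) and 9.22 (0.309–275) for Aspn, from at most 7 UMIs in a class. For Omd it was 1.16 (0.287–3.61) and 0.595 (0.0507–3.16). The ratio of both-marker to Tcf21-type cells was 0.811 (0.160–3.38) and 0.0734 (0.00116–0.702) for Fmod. Against SCs, Dcn, Bgn, Lum and Ogn were at least 2-fold higher in Mfap5-type cells, as were 8.19% of 12931 genes. Against endocrine cells the same 4 were, as were 7.82% of 10346 genes. Lum against SCs, and Bgn, Lum and Ogn against endocrine cells, passed the minimum only with their Mfap5-type UMIs, which fixed their direction in advance. No member was lower in either comparison, where 4.88% and 6.85% of genes were.

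Ogn and Lum had the following levels. Ogn was 435 CPM in male and 295 CPM in female Mfap5-type cells, with ratios to Tcf21-type of 0.876 (0.682–1.12) and 0.567 (0.377–0.830). Lum was lower in both-marker than in Tcf21-type cells, at 149 and 219.9 CPM, with ratios of 0.582 (0.466–0.723) and 0.762 (0.601–0.964). The same ratio for Dcn was 1.20 (1.15–1.24) and 1.07 (1.02–1.12), for Bgn 0.721 and 0.855, and for Ogn 1.0 and 1.10. Prelp was 47.1 and 50.6 CPM in both-marker cells, with ratios to Tcf21-type of 1.86 (1.13–3.04) and 1.18 (0.677–2.05). None of the 6 genes compared passed 2-fold in both libraries, as 1.1% of genes did upward and 1.34% downward. For comparison, the genes furthest apart between Mfap5-type and Tcf21-type cells, after Mfap5 and Tcf21 themselves, were Spp1 (51.9 and 66.1 times higher), Fxyd5, Nov and Gja1 on the Mfap5 side and Ank3, Gucy1a1, Penk and Lsp1 on the Tcf21 side.

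**Figure D2:**
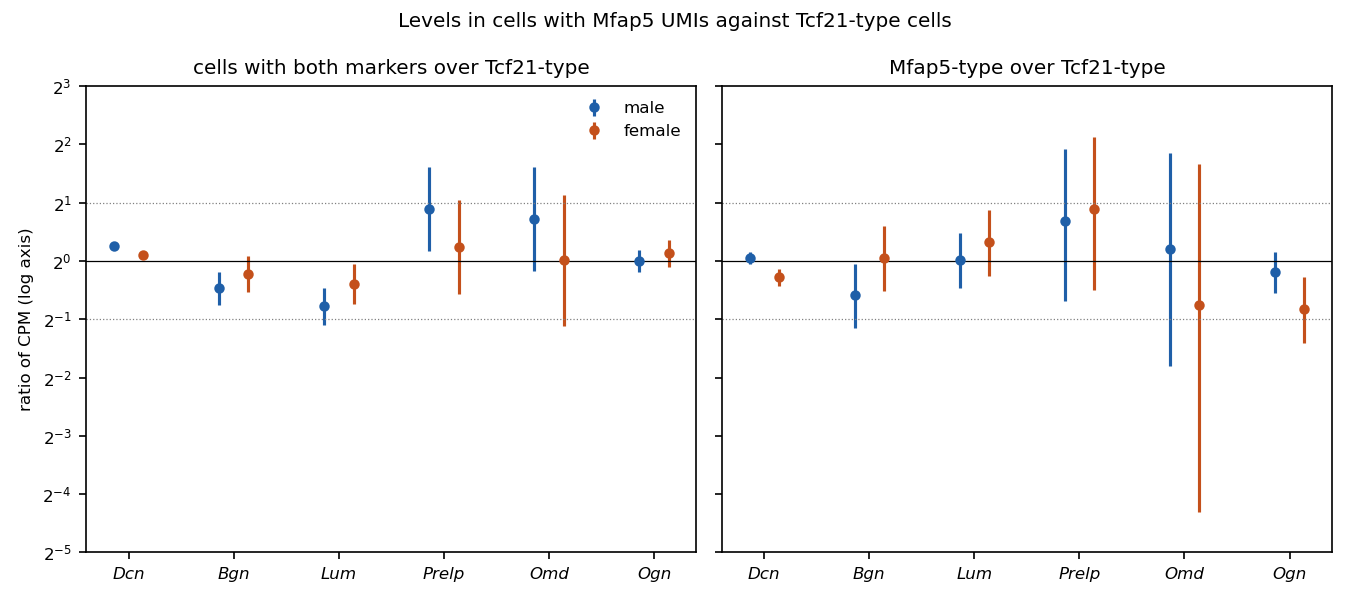
Ratio of the CPM in both-marker cells and in Mfap5-type cells to that in Tcf21-type cells, on a log axis, for 6 genes in the male and female library; bars are the outer limits from the Poisson intervals and dotted lines mark 2 and 0.5. Lum lies below 1 in both-marker cells of both libraries, and no gene lies beyond a dotted line in both libraries. Omd was below the UMI minimum in the Mfap5-type comparison.

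Prelp, the product of which anchors basement membranes to the collagen beneath, was the exception to the mesenchymal pattern. Its level in SCs was 34.2 CPM (32.5–36.0) for male and 35.5 CPM (33.6–37.5) for female cells. In Tcf21-type cells it was 25.4 CPM (20–31.8) and 42.9 CPM (32.3–55.8). The ratio of Tcf21-type to SCs was 0.742 (0.555–0.978) in one library and 1.21 (0.861–1.66) in the other, so no common direction was found. Against all mesenchymal cells, which had 31.6 CPM (26.7–37.0) and 47.7 CPM (39.6–57.0), the SC level was within the interval for male cells and below it for female cells. Because SCs were many, 68.0% and 78.1% of all Prelp UMIs were in SCs and 7.06% and 7.38% in mesenchymal cells, and Prelp made up 68.1% and 67.5% of the UMIs of the 8 genes in SCs.

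Of SCs, Lef1-type and endocrine cells, SCs had the highest Prelp level in both libraries. Endocrine cells had 1.15 CPM and 0.839 CPM, the latter from 3 UMIs, and Lef1-type cells had 5.44 and 5.84 CPM. The SC level was 29.6 (17.3–54.6) and 42.3 (13.7–217) times that of endocrine cells and 6.29 (4.75–8.43) and 6.08 (4.35–8.68) times that of Lef1-type cells. Prelp and Ogn were at least 2-fold higher in SCs than in endocrine cells in both libraries and Dcn was at least 2-fold lower, out of 4 genes compared, where 13.3% of 13530 genes were higher and 10.5% lower. The male Ogn and Dcn ratios changed with the setting, and male Pomc-type cells had a median of 2223 UMIs. For Ogn the male ratio of 2.31 became 1.76 with 20 collagen UMIs as the mesenchymal limit. It turned to 0.428 with the mean of per-cell CPM, and rose to 4.21 in cells with at least 2000 UMIs. The female Ogn ratio of 14.9 rested on 3 endocrine UMIs. For Dcn the male ratio of 0.417 became 0.542 in cells with at least 2000 UMIs. The cause of these changes was not tested. For Prelp the mean of per-cell CPM gave 5.96 and 23.3, still higher in SCs. Prelp and Ogn were also at least 2-fold higher in SCs than in Lef1-type cells, as were 14.5% of 13296 genes, and no member was lower, as 5.18% were.

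The share of cells gave the same order at equal depth. With each cell thinned to 5000 UMIs, 14.9% of male and 15.1% of female SCs had a Prelp UMI, against 0.600% and 0.383% of endocrine cells and 1.84% and 2.84% of Lef1-type cells. Tcf21-type cells had one in 10.9% and 19.0%. Before thinning the shares were 28.7% and 27.2% in SCs (median 10050.5 and 9282.5 UMIs), 1.32% and 0.741% in endocrine cells (12086 and 12389.5 UMIs) and 17.9% and 22.3% in Tcf21-type cells (7620 and 6947 UMIs). Thinning left out 443 and 103 SCs, 305 and 9 endocrine cells and 43 and 22 Tcf21-type cells. In the male library, 10 cells with the pituicyte marker Rax and no epithelial UMI had 6 Prelp UMIs in 5 cells, or 46.4 CPM.

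**Figure D3:**
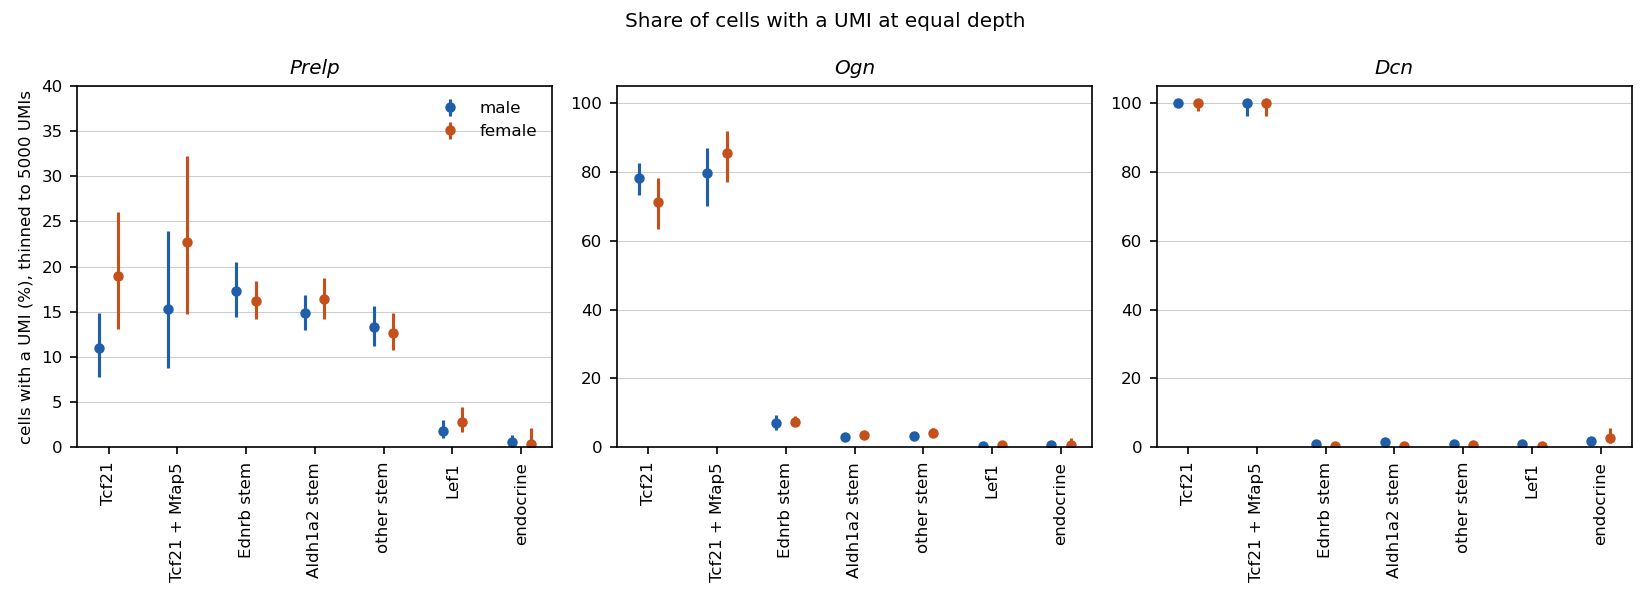
Percentage of cells with at least 1 UMI of Prelp, Ogn or Dcn after each cell was thinned to 5000 UMIs, for 7 cell classes in the male and female library, with exact Clopper-Pearson 95% intervals. Prelp is found in 14.9% and 15.1% of stem cells but in under 1% of endocrine cells, Ogn stands highest among stem classes in the Ednrb-type cells, and Dcn is found in all Tcf21-type cells.

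SCs were further split by Ednrb (at least 2 UMIs; 667 male and 1265 female cells) and by Aldh1a2 (at least 2 UMIs, no Ednrb; 1459 and 1066 cells). Ogn was 15.0 and 16.9 CPM in Ednrb-type and 6.06 and 7.89 CPM in Aldh1a2-type SCs, a ratio of 2.48 (1.76–3.51) and 2.14 (1.52–3.03). Of the 4 genes compared, Ogn alone was at least 2-fold higher in both libraries, as were 1.12% of 12277 genes, and none was lower, as 0.538% of genes were. At equal depth, an Ogn UMI was found in 6.98% and 7.44% of Ednrb-type and 2.91% and 3.45% of Aldh1a2-type SCs. Prelp did not share this difference, at 38.0 and 40.3 CPM in Ednrb-type and 34.2 and 37.1 CPM in Aldh1a2-type SCs, with ratios of 1.11 (0.933–1.32) and 1.08 (0.905–1.30).

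Each level was also set against the level in all mesenchymal cells of the same library. Per 1000 of the mesenchymal level, SCs held 0.775 and 0.155 of Dcn and 0.922 and 0.107 of Lum, but 9.33 and 9.99 of Bgn, 19.0 and 24.2 of Ogn and 1085 and 744 of Prelp. The members thus differed widely in this quantity, and the part of free RNA in the SC signal was not tested. Over 14 mesenchymal markers used in no gate the same quantity had a median of 24.3 and 22.8, and it ranged from 1.18 to 1459 and from 0.198 to 2341, with Prrx1 highest. Without the cells of highest Scrublet (doublet) score the SC values were 0.694 and 0.156 for Dcn, 19.4 and 24.1 for Ogn and 1103 and 738 for Prelp.

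**Figure D4:**
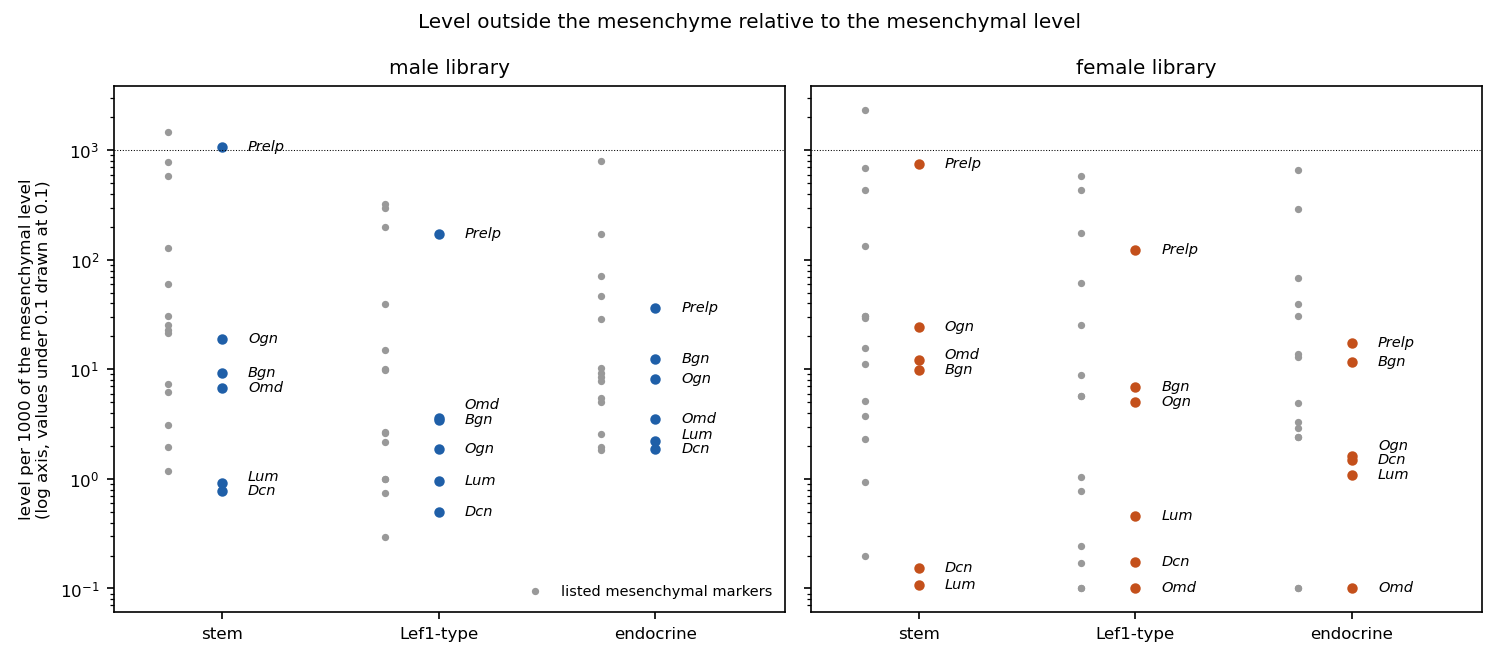
Level of 6 genes in stem, Lef1-type and endocrine cells per 1000 of their level in all mesenchymal cells of the same library, on a log axis, with 14 other mesenchymal markers in grey; values under 0.1 are drawn at 0.1 and the dotted line marks the mesenchymal level of 1000. Prelp in stem cells lies near the dotted line in the male library (1085) and below it in the female library (744). In stem cells Ogn and Bgn lie between 9.33 and 24.2, and Dcn and Lum lie below 1.

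The low Dcn signal in endocrine cells was concentrated in few cells of the female library. Male cells had 9.60 CPM and female cells 9.23 CPM, and in the female library 26 of the 33 UMIs came from 5 of the 270 cells. In the male library 5 cells held 26 of the 133 UMIs, and 82 of the 1139 cells had at least 1. Within the endocrine class, Dcn was 9.86 and 13.4 CPM in Pou1f1-type, 1.76 and 0 CPM in gonadotroph-type and 17.8 and 2.04 CPM in Pomc-type cells. Of the 356 male Pomc-type cells, 225 fell below 5000 UMIs. A Dcn UMI was found in 10.4% of the 356, and in 1.53% of the 131 others after thinning. Between Pou1f1-type and Lef1-type cells, Dcn was at least 2-fold higher in the former (7.89% of 11215 genes were) and Prelp at least 2-fold lower (5.8% were). A Dcn UMI was found in 1.92% and 2.68% of endocrine cells and in 1.12% and 0.388% of SCs at equal depth. The mixed cells, which held 15.1% and 8.40% of all Dcn UMIs, were not among these classes, and Scrublet marked 58.5% and 78.8% of them. The part of residual doublets in the endocrine Dcn signal was not tested.

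Inside the Tcf21-type class, the genes were spread in different ways. After thinning, Tcf21-type cells had a median of 3 of the 8 genes, and 35.0% and 36.6% had at least 4. SCs with at least 1 made up 20.4% and 21.6% and those with at least 2 made up 1.02% and 0.955%. Lum was the most unevenly spread of the abundant members: 50.6% and 49.7% of Tcf21-type cells had none, and the tenth with most Lum held 49.2% and 49.6% of its UMIs, against 20.6% and 18.3% for Dcn, 30.2% and 33.6% for Bgn and 27.9% and 32.1% for Ogn. A lower level also makes such a share larger by counting alone, and Bgn and Lum had similar totals.

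A relation between Lum and Ogn was noticed after the values were seen, and is given as a description. Among thinned male Tcf21-type cells, 70.9% of the 158 cells with a Lum UMI and 85.2% of the 162 without one had an Ogn UMI. In the female library these were 59.7% of 77 and 82.9% of 76 cells. The direction was not particular to Lum. An Ogn UMI was found in 76.4% of 233 male cells with a Bgn UMI and in 82.8% of 87 without one. For female cells these were 67.9% of 109 and 79.5% of 44. Ogn UMIs per cell were 0.796 (0.655–0.968) and 0.729 (0.549–0.966) times as many in cells with Lum, whereas Dcn was 1.16 (1.09–1.23) and 1.20 (1.11–1.31) times and Bgn 1.20 (0.914–1.56) and 1.56 (1.08–2.25) times as high. The median depth before thinning was 8003 and 7901 UMIs for male and 7054 and 7389 UMIs for female cells with and without Lum. In both-marker cells the relation of Lum to Ogn was not seen, with Ogn ratios of 0.996 (0.684–1.44) and 1.02 (0.736–1.42). Cells of 1 library are not replicates, so these relations have no test.

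**Figure D5:**
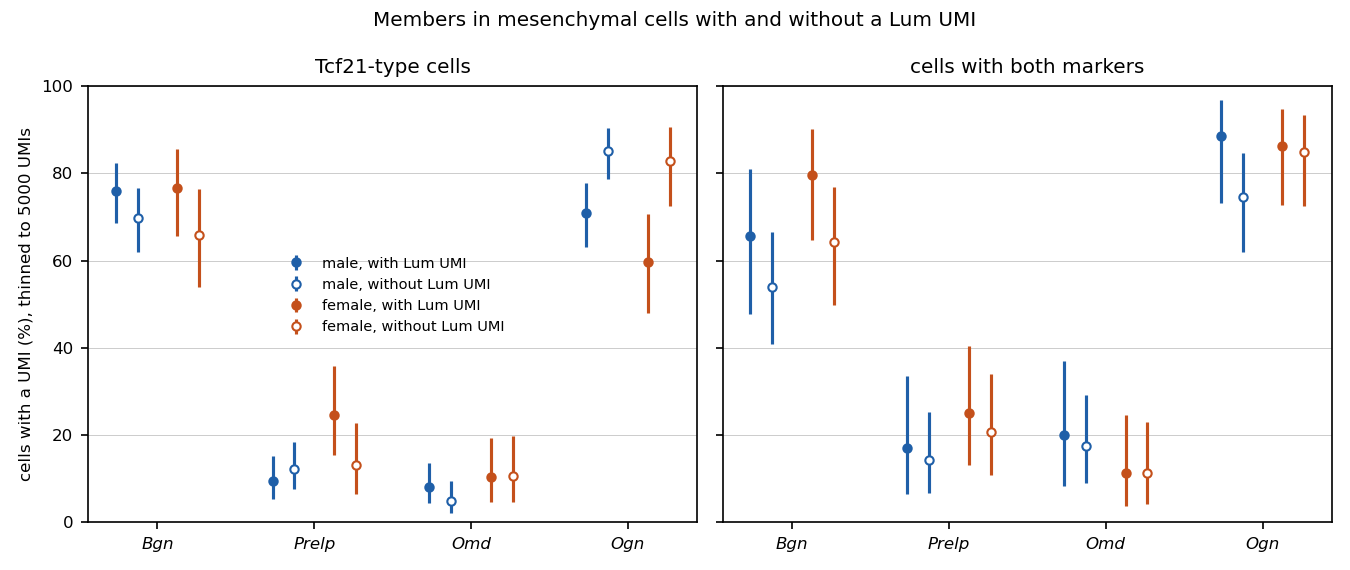
Percentage of cells with a Bgn, Prelp, Omd or Ogn UMI among thinned cells with and without a Lum UMI, in the Tcf21-type and both-marker classes of the male and female library, with exact 95% intervals. In Tcf21-type cells Ogn is found in 70.9% and 59.7% of cells with Lum and in 85.2% and 82.9% of cells without.

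Between the sexes, the more abundant members differed by less than 1.5-fold in Tcf21-type cells, apart from Prelp. The female level was 1.24 times the male level for Dcn, 1.23 for Bgn, 1.13 for Lum, 1.36 (0.709–2.59) for Omd and 1.05 for Ogn. For Fmod it was 2.64 times (0.934–7.56) and for Aspn 4.67 times (0.101–666), from 1 male and 2 female UMIs, and these with Omd were below the UMI minimum. Prelp, at 1.69 times (1.02–2.79), was the only gene of 5 at or above 1.5-fold, where 2.02% of 5635 genes were and 5.54% were as much lower. In SCs, Dcn was lower in the female library (4.0 CPM male, 0.963 CPM female, ratio 0.241, 0.144–0.391), and 2.63% of 12890 genes were at least 1.5-fold lower, while Prelp was equal within its limits (1.04) and Ogn was 1.39 times as high. No member was as much higher in SCs, where 2.51% of genes were. In both-marker, Mfap5-type, endocrine and Lef1-type cells no member with enough UMIs (5, 3, 1 and 1 of the 8) passed 1.5-fold in either direction. The shares of all genes that were higher were 2.19%, 4.59%, 3.85% and 2.22%, and the shares lower were 3.87%, 5.83%, 5.35% and 2.63%. With 1 library per sex these ratios have no replicate check.

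The genes that lie beside the 8 were examined for the same classes. Optc, next to Prelp, was 6.39 and 3.38 CPM in SCs and 2.34 and 3.12 CPM in Tcf21-type cells. Kera, next to Lum, was 4.35 and 5.46 CPM in Tcf21-type cells, 24.4 and 8.76 CPM in both-marker cells and at 0 UMIs in SCs. Ecm2, next to Aspn, was higher in mural-type cells (54.7 and 134 CPM) than in Tcf21-type cells (17.4 and 22.6 CPM), the direction also seen for Aspn. The mural-type classes held 26 and 7 cells with 182717 and 59916 UMIs of all genes, so these Ecm2 levels rest on few UMIs. Of the 10 leucine-rich relatives listed, 4 could be compared between Tcf21-type cells and SCs: Ecm2 and Chadl were at least 2-fold higher, Tsku was at least 2-fold lower, and Optc was neither.

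The partners of these proteins were described by lists. Of all 13142 genes compared between Tcf21-type cells and SCs, 9.69% were at least 2-fold higher and 14.1% lower. Mesenchymal cells were set by UMIs of Col1a1, Col1a2 and Col3a1, so the collagen and fibril list is not independent of the gate. Its genes Col5a1, Col5a2, Col6a1, Col6a2, Col6a3, Loxl1, Fbn1 and Mfap4 also served above as mesenchymal check markers. Of 18 collagen and fibril genes, 17 could be compared between Tcf21-type cells and SCs; 13 were at least 2-fold higher and none lower, with a median log2 ratio of 5.17. They included Col6a1 (885 and 5199 times), of the beaded filaments of collagen VI, the fibril-associated collagen gene Col14a1 (700.0 and 2305 times) and the collagen crosslinking enzyme Lox (143 and 125 times), while Col6a3 (1.14 and 1.44) and Fbln2 (0.562 and 0.762) did not pass. Among 22 of 26 enzymes that build or modify glycosaminoglycan chains, 7 were higher and 1 lower, with a median of 0.76. The dermatan sulphate enzymes Dse (9.20 and 7.97 times) and Chst14 (7.28 and 6.07 times), which convert and sulphate the chains, and the chondroitin synthase Chsy1 (6.05 and 3.84 times) were higher. B3gnt7, which extends keratan sulphate, was lower (0.207 and 0.333), and the other keratan sulphate genes were mixed, with Chst1 higher (7.52 and 2.83) and B4galt4 (1.05 and 1.19) and Chst2 (0.986 and 0.884) neither.

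Of 13 ligands, receptors and the procollagen protease Bmp1, 11 could be compared, of which 5 were higher and 2 lower, with a median of 1.01. Tgfb1 (6.51 and 7.63 times), a ligand that decorin binds, Bmp4 (8.29 and 6.78 times), the endocytic receptor Lrp1 (24.2 and 21.8 times), Tlr4 and Bmp1 were higher in Tcf21-type cells. Met, the hepatocyte growth factor receptor that decorin also binds, was lower there (0.00667 and 0.0443), as was Tlr2, and the receptor gene Egfr (0.497 and 0.688) did not pass. Of 6 other matrix proteoglycans compared, Vcan, Hspg2 and Spock2 were higher and none lower. Against endocrine cells, 16 of 17 collagen and fibril genes and 7 of 17 chain enzymes were higher in Tcf21-type cells. So were 5 of 8 ligands and receptors and 3 of 5 other proteoglycans. In each of these lists except the collagen and fibril list, where none was, 1 gene was lower. Of all 11148 genes compared, 11.8% were higher and 16.2% lower.

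Genes with the most similar pattern were sought among 14059 genes over 21 class values of the 2 libraries, by Pearson correlation of log2(CPM + 1). The points share libraries and cells, so these values are descriptions. For Dcn they were Col3a1 (0.993), one of the genes that set the classes, and Cldn11 (0.990), for Bgn Naalad2 (0.992), and for Lum Ctsk (0.996) and Foxc2 (0.994). For Omd they were Pi15 (0.994) and C1qtnf7 (0.993), and for Ogn Dse (0.985) and Col5a1 (0.983). For Prelp they were Ahnak (0.978) and Gstm2 (0.973), and for Aspn Tinagl1 (0.929). Among the members, Dcn correlated with Lum at 0.99 and with Prelp at 0.46, and Prelp with Ogn at 0.74.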

How the data were processed

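Gene by cell UMI counts were deposited by the authors as whole numbers, unnormalised, 1 matrix per sex. They were made with Cell Ranger 3.0.2 on the mm10 transcriptome with eGFP added. The labels name v2 and v3 chemistry. Cells had to have at least 50 genes and a mitochondrial share within 3 SD of the library mean, which removed 159 of 10569 male and 85 of 5796 female barcodes. Kept cells held 105883748 and 62830305 UMIs.

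UMIs were summed per class and library and given as CPM with exact Poisson 95% intervals, and shares have Clopper-Pearson intervals. Ratio limits set the ends of the 2 intervals against each other. A gene counted as higher or lower at 2-fold in both libraries (1.5-fold between sexes), with at least 100 UMIs. A class at 0 UMIs was set at 3 counts, gave only a bound and was never counted as the higher one. Thinning drew 5000 UMIs per cell (seed 1), and shallower cells were left out. Endocrine cells had at most 1 Sox2 UMI and exactly 1 of at least 2 UMIs of Gnrhr, Nr5a1, Lhb and Fshb summed, 2 of Pou1f1 or 50 of Pomc. Doublets were marked with Scrublet (in scanpy 1.11.5) at 0.8% per 1000 cells (867 and 261) and removed only as an alternative. Python 3.11.15, numpy 2.4.6, scipy 1.17.1 and pandas 2.3.3 were used, and the ratios were tested on simulated data.

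The 8 members are all reported, the other lists were described by counts, medians and up to 6 values each, and for each member the 2 genes with the most similar pattern were sought, of which some are not reported here. Members and lists were chosen with earlier results of these data known. Alternatives changed the cells, doublets, gates, scaling, UMI minimum and fold, and a Mfap5-type class with or without Tcf21 was added after the data were seen.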

Additional observations from a re-analysis of the deposited data

Results flagged for a closer look

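Barcodes removed by the cell filters were in no comparison. In the 159 removed male barcodes the 8 genes summed to 147 CPM, from 23 of 156139 UMIs, above the limit that a count of 0 allows, while the 85 removed female barcodes held 0 of 67454 UMIs. Among kept male cells the same sum was 6191 CPM in mesenchymal cells, 50.3 CPM in SCs and 61.2 CPM in cells that met no gate. The source of the UMIs in the removed barcodes was not tested.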

How the results depend on the processing

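One ratio of a member named as higher changed direction: Ogn in male SCs over endocrine cells was 0.428 with the mean of per-cell CPM, against 2.31 as reported. The count of members at least 2-fold higher in SCs than in endocrine cells, 2 as reported, was 1 with 20 collagen UMIs for the mesenchymal gate, 1 with the mean of per-cell CPM and 1 at 4-fold, Prelp each time. The count of members at least 2-fold lower there, 1 as reported (Dcn), was 0 in cells with at least 2000 UMIs and 0 at 4-fold. Members at least 1.5-fold higher in the female Tcf21-type cells, 1 as reported (Prelp), were 2 with a minimum of 30 UMIs and 0 at 2-fold. Of all counts of members, 78 stayed within 1.5 times and 7 did not, and of the log2 ratios of single members 434 stayed within their limits and 14 did not. With at least 2 Tcf21 and 5 Mfap5 UMIs, the log2 ratio of Lum between female Mfap5-type (9 cells) and Tcf21-type cells was -0.86 in place of 0.32.

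Counts over all genes moved more. With a minimum of 30 UMIs, genes higher in Mfap5-type than in endocrine cells went from 809 to 1262, those higher in Mfap5-type than in Tcf21-type cells from 90 to 246, and those between the sexes from 114 to 447 higher and from 312 to 975 lower. At 4-fold, higher and lower genes went from 1274 and 1857 to 609 and 873 (Tcf21-type over SCs), from 1059 and 631 to 417 and 158 (Mfap5-type over SCs), from 1313 and 1802 to 731 and 892 (Tcf21-type over endocrine), from 809 and 709 to 326 and 184 (Mfap5-type over endocrine), from 90 and 213 to 18 and 28 (Mfap5-type over Tcf21-type) and from 1799 and 1418 to 737 and 628 (SCs over endocrine), and at 2-fold between the sexes from 114 and 312 to 12 and 44. With Mfap5-type cells taken with or without Tcf21, added after the data were seen, lower genes went from 631 to 1785 against SCs, from 709 to 1851 against endocrine and from 213 to 110 against Tcf21-type cells. The cause was not tested beyond the threshold or cell number each alternative sets. No paired analysis was possible because each sex was a single library and no result came from a test. Few UMIs limit Fmod and Aspn, and few cells limit the Mfap5-type and mural-type classes.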
